A study of Mus musculus with 8 samples.

Results

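Calcineurin and NFAT genes were described in RNA sequencing data from mouse skeletal muscle. The 8 genes were taken by symbol from the deposited gene table, where each matched 1 of 36048 entries. They are Ppp3ca and Ppp3cb (catalytic subunits), Ppp3r1 (regulatory subunit), Rcan1 (an inhibitor) and Nfatc1, Nfatc2, Nfatc3 and Nfatc4 (transcription factors). Libraries came from single muscle fibres of the EDL muscle (SMF, n = 3), from satellite cells, the muscle stem cells (SC, n = 2, numbered 1 and 3), and from endothelial cells (EC, n = 3). For SC and EC, about 100000 cells per library were sorted from the muscles of the hindlimb, and each SMF library held 100 intact fibres picked by hand after they had rested for 3 h. The labels give no strain, age, genotype or treatment for any group, and do not say whether replicates came from separate animals, so a p-value here is set by the spread among libraries alone, and that spread may be technical. The muscle of origin and the way of isolation differed together with the population, and their parts in a difference cannot be told apart.

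Calcineurin is a phosphatase that calcium and calmodulin switch on. It is built from a catalytic subunit, which also binds calmodulin, and a calcium-binding regulatory subunit. It removes phosphates from NFAT proteins, which then enter the nucleus and bind DNA at sites with the core GGAAA, often beside AP-1 factors. Kinases such as GSK3 and DYRK put the phosphates back. Rcan1 protein binds calcineurin and inhibits it, and the inner promoter of the Rcan1 gene is itself an NFAT target, so that its short transcript is used as a readout of the pathway. In muscle the pathway is known for its part in the slow fibre programme and in the growth of new fibres, and in endothelium for the response to VEGF.

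The transcripts and promoters that the results turn on are shown first. Ppp3ca can carry an extra exon of 30 bases, exon 13 of the 14-exon transcript ENSMUST00000056758, which lies within the coding sequence and keeps its reading frame (GRCm39, plus strand, chr3:136637772-136637801, GENCODE). It is shown in capitals with 30 bases of the neighbouring exons on either side, because the transcript that holds it differed between the populations.

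Ppp3ca exon 13 and flanks: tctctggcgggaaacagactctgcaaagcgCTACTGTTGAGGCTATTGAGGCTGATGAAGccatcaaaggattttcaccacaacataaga

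Rcan1 has an inner and an outer promoter, and both are shown because their transcripts had different values between libraries. The 250 bases before each start are given 5′ to 3′ on the minus strand of chromosome 16 (RefSeq, GRCm38.p6), the inner one at chr16:92400079-92400328 and the outer one at chr16:92466170-92466419. Capitals mark GGAAA or its reverse complement TTTCC.

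Rcan1 inner promoter: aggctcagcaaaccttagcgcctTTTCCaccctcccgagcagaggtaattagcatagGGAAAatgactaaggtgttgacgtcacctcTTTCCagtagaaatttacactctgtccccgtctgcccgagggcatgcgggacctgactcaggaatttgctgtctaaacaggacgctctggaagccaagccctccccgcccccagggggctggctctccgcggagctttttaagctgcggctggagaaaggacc
Rcan1 outer promoter: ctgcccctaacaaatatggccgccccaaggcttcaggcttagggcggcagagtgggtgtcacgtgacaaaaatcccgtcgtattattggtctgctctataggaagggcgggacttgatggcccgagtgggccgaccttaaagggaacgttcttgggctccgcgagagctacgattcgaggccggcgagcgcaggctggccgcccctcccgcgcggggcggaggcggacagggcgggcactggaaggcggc

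The inner window holds 3 matches to GGAAA on either strand, whose leftmost bases lie 227, 193 and 163 bases before the start, and 1 match to the AP-1 motif TGACTCA that overlaps none of them. The outer window holds 0 matches to GGAAA and 0 to TGACTCA. Among 32851 windows of this length in the RefSeq table, 55.6% hold at least 1 match to GGAAA, 6.39% hold at least 3, and 4.46% hold TGACTCA. A match describes the letters only and does not show a binding site.

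Nfatc2 is shown because its level in SC stood apart. Its main deposited transcript in all 3 populations, ENSMUST00000109184, starts at the inner promoter (minus strand, chr2:168590366-168590615), while ENSMUST00000171689 starts at the outer one (chr2:168601658-168601907). The inner window holds 1 match to GGAAA and the outer window holds 3.

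Nfatc2 inner promoter: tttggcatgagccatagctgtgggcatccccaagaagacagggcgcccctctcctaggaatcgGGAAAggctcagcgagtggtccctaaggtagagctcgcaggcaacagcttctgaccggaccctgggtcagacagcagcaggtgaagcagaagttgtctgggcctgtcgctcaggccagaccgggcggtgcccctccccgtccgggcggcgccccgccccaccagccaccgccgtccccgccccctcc
Nfatc2 outer promoter: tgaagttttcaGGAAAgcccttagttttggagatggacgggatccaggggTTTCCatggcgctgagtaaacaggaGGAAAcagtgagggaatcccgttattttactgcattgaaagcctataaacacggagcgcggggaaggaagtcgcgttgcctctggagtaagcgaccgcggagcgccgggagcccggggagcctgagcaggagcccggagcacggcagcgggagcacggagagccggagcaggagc

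Values are FPKM (fragments scaled to gene length and library size) from the gene table unless TPM (a similar measure scaled to a fixed total) is named. Coverage times length over the transcript table came to 525.5 to 580.8 Mb of aligned bases in SMF libraries, 312.9 and 277.9 Mb in SC and 297.8 to 367.8 Mb in EC, so that 1 fragment on 1 kb is worth 0.172 to 0.190 FPKM in SMF, 0.320 and 0.360 in SC and 0.272 to 0.336 in EC. The 8 fixed markers of each population summed to at least 29900 FPKM in SMF for fibre genes, 786 and 816 in SC for satellite cell genes and 1160 to 1180 in EC for endothelial genes, with all 8 at 1 FPKM or more in each library of their own population. EC replicate 2 stood apart from EC replicates 1 and 3. Fibre markers were also read in sorted cells, at 181 and 291 FPKM in SC, with all 8 above 1, and at 10.4 to 22.6 in EC, and their part in the values of fibre genes there was not tested. In EC replicate 2 the immune markers summed to 1.52 FPKM, against 11.1 and 13.9, the pericyte and smooth muscle markers to 226, against 580 and 698, and the fibro-adipogenic markers to 17.6, against 72.5 and 80.4. The limma test was run on log2(FPKM + 1) for the 16700 genes that reached 1 FPKM in 2 or more libraries, and 7 of the 8 members passed this filter, all but Nfatc4. The median log2 difference of all tested genes was -0.93 for SMF minus SC, -0.85 for SMF minus EC and 0.11 for SC minus EC. After median-of-ratios scaling these medians were -0.12, -0.09 and -0.01, so differences from fibres are also given relative to the median gene, since less RNA of a gene and more RNA of other genes cannot be told apart.

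By gene FPKM, fibres had more RNA of the calcineurin subunits Ppp3cb and Ppp3r1 and of the inhibitor Rcan1 than satellite cells, and less RNA of Nfatc2. By TPM, Rcan1 was still called higher and Nfatc2 lower, but Ppp3cb and Ppp3r1 were not called. In SMF minus SC, 3 of 7 tested members were called higher and 2 lower at an adjusted p under 0.05, where 65.1% of all tested genes were called, 8.57% higher and 56.5% lower. In SMF minus EC, 3 were higher and 3 lower, beside 66.3% of all tested genes, 10.8% higher and 55.5% lower. In SC minus EC, 1 was higher and 2 lower, beside 37.7%, 21.2% higher and 16.4% lower. In such bulk samples fewer cells of a type and less RNA per cell cannot be told apart. As deposited, Nfatc2 took its highest level in SC, and Ppp3ca, Nfatc1 and Nfatc3 theirs in EC. After median-of-ratios scaling Ppp3ca, Nfatc1 and Nfatc3 were not called lower in SMF than in EC, and the sign of each difference turned.

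**Figure D1:**
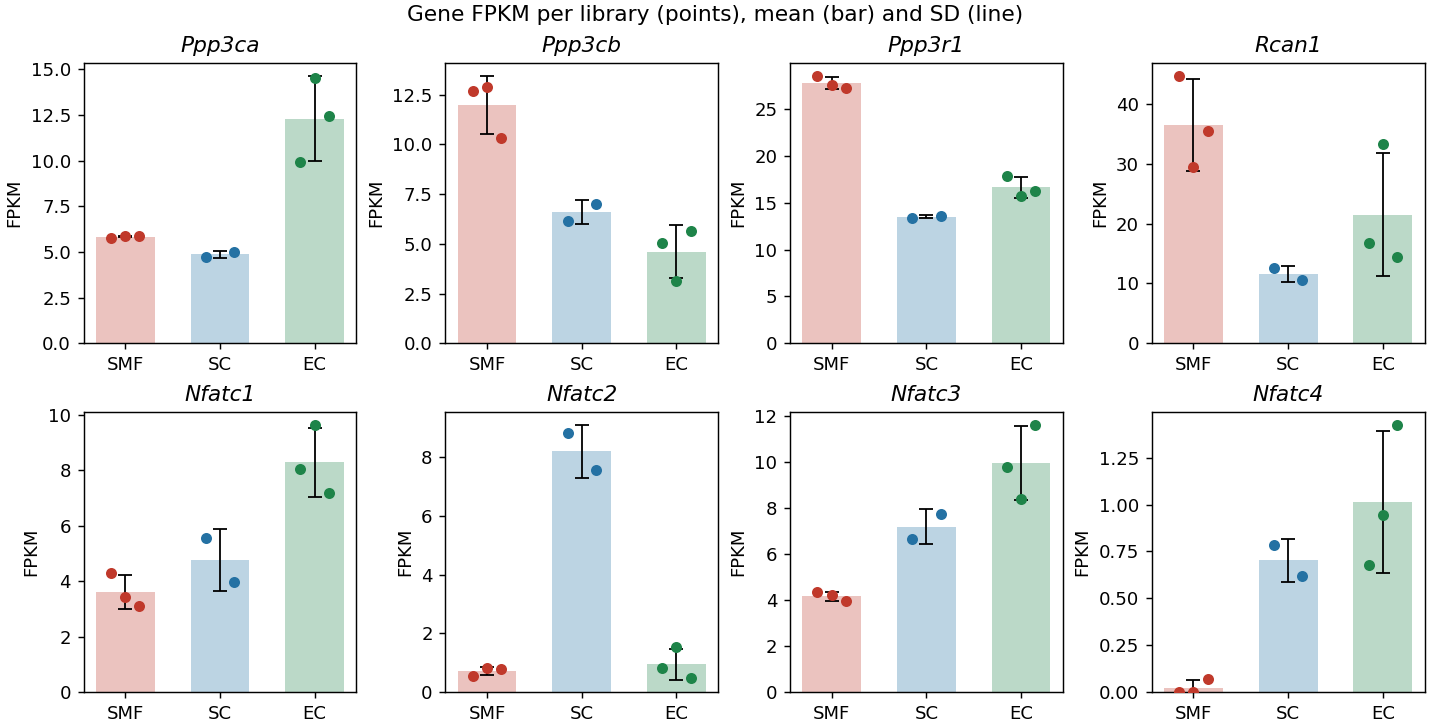
FPKM of the 8 genes (y axis) in fibres (SMF, n = 3), satellite cells (SC, n = 2) and endothelial cells (EC, n = 3); points are libraries, bars means and lines SD. Ppp3cb, Ppp3r1 and Rcan1 have their highest mean in SMF, Nfatc2 in SC, and Ppp3ca, Nfatc1, Nfatc3 and Nfatc4 in EC.

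The catalytic subunit genes Ppp3ca and Ppp3cb differed in where EC stood, which had the highest mean of Ppp3ca and the lowest of Ppp3cb. Ppp3ca (ENSMUSG00000028161, chromosome 3, 136669714 to 136937727, GRCm38) stood at 5.80, 5.86 and 5.86 FPKM in SMF, 4.74 and 5.03 in SC and 9.93, 14.5 and 12.4 in EC. EC libraries lay above all others, and SMF and SC did not overlap but were close. Ppp3ca was lower in SC than in EC (log2 difference -1.16, SE 0.17, adjusted p = 0.00138), a call held under all 3 other scalings. It was also lower in SMF than in EC (log2 -0.95, SE 0.15, adjusted p = 0.000895), which is close to the median gene at -0.85, and under the other scalings it was not called and became 0.32 after median-of-ratios scaling. SMF minus SC was not called at log2 0.22 (95% interval -0.18 to 0.62, adjusted p = 0.293), but under each of the 3 other scalings Ppp3ca was called higher in SMF (log2 0.62 to 1.57).

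Ppp3cb (ENSMUSG00000021816, chromosome 14, 20499364 to 20546573) stood at 12.7, 12.9 and 10.3 FPKM in SMF, 6.18 and 7.01 in SC and 5.07, 3.11 and 5.64 in EC. All SMF libraries lay above the others, and SC above EC. The difference was log2 0.77 for SMF minus SC (SE 0.23, adjusted p = 0.0185) and 1.23 for SMF minus EC (SE 0.20, adjusted p = 0.000994), with both calls held under the 3 other scalings. In the TPM table the populations overlapped, at 21.3, 17.8 and 11.6 in SMF, 8.02 and 15.2 in SC and 8.69, 5.50 and 12.2 in EC, and the SMF minus SC call was lost (adjusted p = 0.257) while SMF minus EC was still called (adjusted p = 0.0454). It was also lost without any one of SC replicate 1, SC replicate 3, SMF replicate 1 or SMF replicate 2 (adjusted p = 0.0505 to 0.0878). SC minus EC was not called at log2 0.47 (95% interval -0.06 to 1.00, adjusted p = 0.151).

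Shares within a library do not depend on how the libraries are scaled. Of the TPM of Ppp3ca, Ppp3cb and Ppp3cc together, Ppp3ca held 38.0%, 36.7% and 48.1% in SMF, 45.4% and 41.2% in SC and 63.9%, 82.0% and 63.0% in EC. Each EC library lay above every SMF and SC library, while SMF and SC overlapped. The third catalytic gene, Ppp3cc, known mainly from testis, held 3.24% to 6.94% in all 8 libraries. From gene FPKM the share of Ppp3ca averaged 29.3% in SMF, 37.8% in SC and 64.9% in EC, in the same order for EC. Gene FPKM is divided by the length of all annotated exons of a gene, which for Ppp3ca include unspliced models, so TPM was used for levels between genes.

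**Figure D2:**
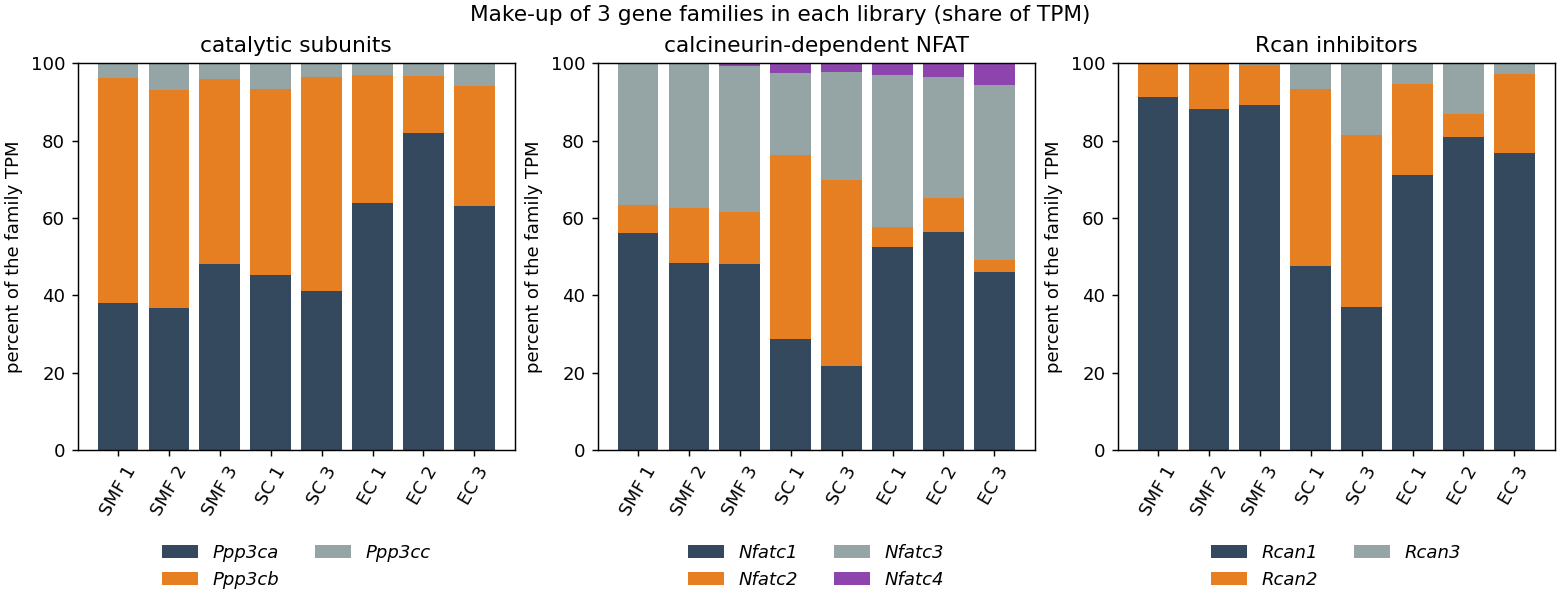
Share of the TPM of a gene family (y axis, percent) held by each member in each of the 8 libraries (x axis), for the catalytic subunits, the calcineurin-dependent NFAT genes and the Rcan inhibitors. Ppp3ca takes 63.0% to 82.0% in EC, Nfatc2 47.6% and 48.1% in SC, and Rcan1 88.1% to 91.3% in SMF.

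The Ppp3ca transcripts also differed by population. The 14-exon transcript with the 30-base exon stood at 10.7, 6.03 and 6.61 FPKM in SMF and was listed at 0 in both SC and all 3 EC libraries. The 13-exon transcript without it, ENSMUST00000070198, stood at 6.82, 9.02 and 8.37 FPKM in SMF, 9.16 and 9.54 in SC and 19.4, 26.7 and 21.7 in EC. In SMF the 14-exon form took 40.6%, 22.7% and 25.4% of the fragments on listed Ppp3ca transcripts, which rested on 136, 75.4 and 76.2 fragments. In the other 5 libraries the 13-exon form rested on 126 to 467 fragments and took 84.1% to 94.2%. The deposited models also differ at their ends, since the 14-exon model is 2194 bases long and the 13-exon model 4758, and the assignment of fragments between them was not tested.

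The regulatory subunit gene Ppp3r1 (ENSMUSG00000033953, chromosome 11, 17159298 to 17200380), whose protein binds calcium and holds the catalytic subunit, stood at 28.5, 27.5 and 27.3 FPKM in SMF, 13.4 and 13.6 in SC and 17.9, 15.7 and 16.3 in EC. SMF libraries lay 2.06-fold above SC and 1.67-fold above EC in their means, with no overlap. The difference was log2 0.99 for SMF minus SC (SE 0.13, adjusted p = 0.000379) and 0.71 for SMF minus EC (SE 0.12, adjusted p = 0.00111), with both calls held under the 3 other scalings. In the TPM table it stood at 25.5, 25.0 and 21.6 in SMF, 19.0 and 16.1 in SC and 16.5, 16.0 and 20.1 in EC, again without overlap between SMF and the others, but neither difference was called (adjusted p = 0.119 and 0.0820). SC minus EC was not called at log2 -0.28 (95% interval -0.59 to 0.03, adjusted p = 0.142).

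Rcan1 (ENSMUSG00000022951, chromosome 16, 92391951 to 92466169) stood at 44.6, 29.4 and 35.5 FPKM in SMF, 12.5 and 10.6 in SC and 16.8, 33.2 and 14.4 in EC. SMF lay above SC in every library, and EC replicate 2 lay within the range of SMF. Rcan1 was higher in SMF than in SC (log2 1.56, SE 0.35, adjusted p = 0.00489), also in the TPM table and under the 3 other scalings. SMF minus EC was called at log2 0.81 (SE 0.31, adjusted p = 0.0489) and this call is borderline: leaving out any one library other than EC replicate 2 ended it (adjusted p = 0.0527 to 0.151). SC minus EC was not called at log2 -0.75 (95% interval -1.56 to 0.06, adjusted p = 0.132).

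The short Rcan1 transcript, ENSMUST00000023672, starts at the inner promoter and stood at 51.0, 26.6 and 40.4 FPKM in SMF, 14.3 and 1.06 in SC and 3.70, 38.0 and 4.21 in EC. The long transcript, ENSMUST00000060005, starts at the outer promoter and stood at 0, 6.56 and 0.238 FPKM in SMF, 0 and 10.4 in SC and 14.6, 0 and 11.6 in EC. The short form thus took 79.3% to 100% of the listed Rcan1 fragments in SMF. In SC it took 100% and 8.77%, and in EC 19.3%, 100% and 25.5%. The SC libraries lay on opposite sides, and EC replicate 2 had the short form where EC replicates 1 and 3 had mainly the long one. The values near 0% or 100% in single libraries come from models that share 3 of their 4 exons, and how well fragments were assigned between them was not tested. The vascular gene Sele, which encodes E-selectin, also stood highest in EC replicate 2, at 81.6 FPKM, against 32.7 and 34.0 in EC replicates 1 and 3. Vcam1 stood at 21.6 there, against 7.85 and 7.99. The other vascular genes listed with them below did not follow. Angpt2 stood lowest in EC replicate 2, at 14.3 FPKM, against 17.9 and 18.1. Ptgs2 stood at 0.415, against 0.450 and 1.17, and F3 was listed at 0 there, against 0.379 and 0. The part that the lower markers of other cell types in this library have in these values was not tested.

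**Figure D3:**
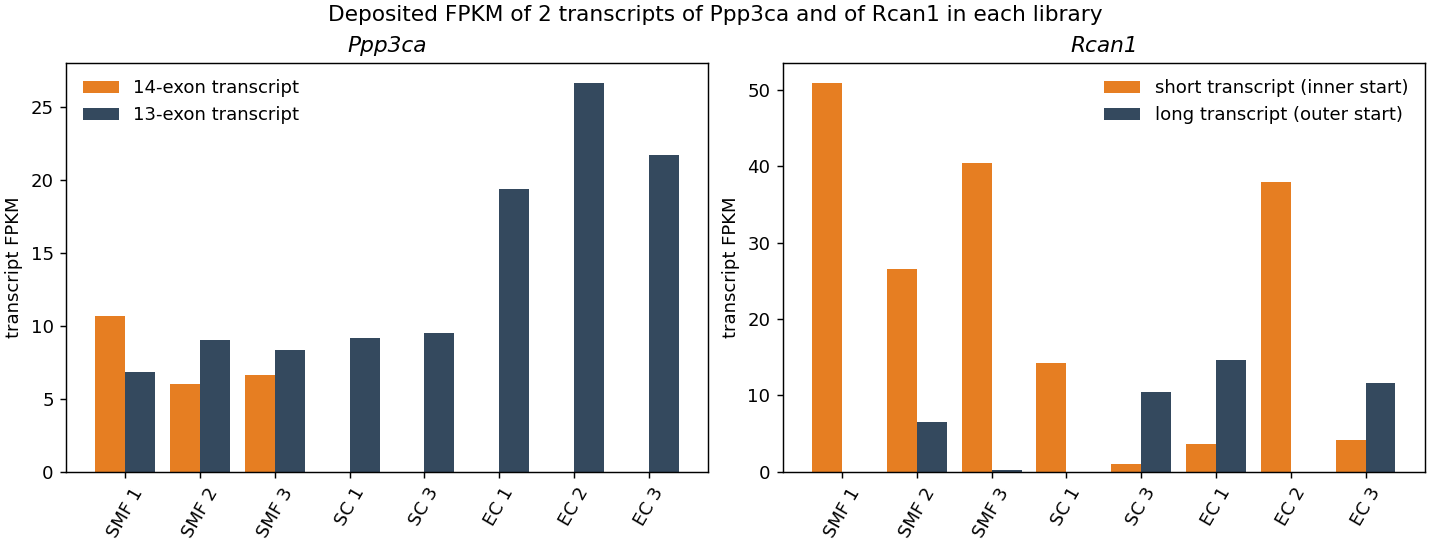
Deposited FPKM (y axis) of 2 transcripts of Ppp3ca (left) and Rcan1 (right) in each of the 8 libraries (x axis). The 14-exon Ppp3ca transcript is above 0 only in the 3 SMF libraries, and the short Rcan1 transcript is the larger form in SMF, in SC replicate 1 and in EC replicate 2.

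Rcan1 shares its family with Rcan2 and Rcan3, which encode related inhibitors. Rcan2 stood at 4.32, 3.97 and 4.22 FPKM in SMF, 12.5 in both SC libraries and 5.52, 2.61 and 3.80 in EC, and was higher in SC than in EC (log2 1.48, SE 0.24, adjusted p = 0.00199), also under the 3 other scalings. Of the TPM of the 3 genes together, Rcan1 held 91.3%, 88.1% and 89.3% in SMF, 47.6% and 36.9% in SC and 71.0%, 80.8% and 76.7% in EC. The 3 populations did not overlap in this share, but from gene FPKM the share in EC replicate 2 was 91.4%, above every SMF library. Rcan3 stayed under 1 FPKM in each library and was not tested.

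Nfatc2 (ENSMUSG00000027544, chromosome 2, 168476410 to 168601657), the NFAT gene known from mouse studies for the growth of muscle fibres by fusion, stood at 0.556, 0.819 and 0.787 FPKM in SMF, 8.84 and 7.56 in SC and 0.824, 1.52 and 0.491 in EC. Both SC libraries lay far above all others, which overlapped among themselves. Nfatc2 was lower in SMF than in SC (log2 -2.42, SE 0.23, adjusted p = 6.24e-05) and higher in SC than in EC (log2 2.27, SE 0.23, adjusted p = 0.000201). These calls held in the TPM table, under the 3 other scalings (log2 -1.38 to -2.17 and 1.87 to 2.37) and without each library in turn. SMF minus EC was not called at log2 -0.15 (95% interval -0.63 to 0.34, adjusted p = 0.553), and its sign changed under the other scalings.

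Its main transcript took 91.8% and 94.2% of the listed Nfatc2 fragments in SC, on 266 and 197 fragments, and 81.9% to 100% in SMF and EC, on 15.3 to 58.5. The sum of the 6 fibro-adipogenic markers was also highest in SC, at 21.7 to 45.5 FPKM in SMF, 254 and 250 in SC and 17.6 to 80.4 in EC. Dpt and Col3a1 made up most of the SC sums and were highest there. Col1a1, Dcn, Pdgfra and Pi16 were not, since each had a library of another population above both SC libraries. The 8 immune markers summed to 0.250 to 0.743 FPKM in SMF, 4.28 and 6.85 in SC and 1.52 to 13.9 in EC. The part of other cell types in the level of Nfatc2 was not tested.

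Nfatc1 (ENSMUSG00000033016, chromosome 18, 80606205 to 80713071), known in adult muscle for the slow fibre programme and in the embryo for heart valve endothelium, stood at 4.28, 3.42 and 3.11 FPKM in SMF, 5.56 and 3.97 in SC and 8.05, 9.63 and 7.18 in EC. EC lay above the others, which overlapped. Nfatc1 was lower in SC than in EC (log2 -0.69, SE 0.20, adjusted p = 0.0269), a call lost in the TPM table (adjusted p = 0.0582), under upper-quartile scaling and without any one of EC replicate 1, EC replicate 2 or SC replicate 3. It was lower in SMF than in EC by log2 -1.01 (SE 0.18, adjusted p = 0.00133), near the median gene at -0.85, and was not called under the 3 other scalings, where the log2 difference ran from -0.44 to 0.18. SMF minus SC was not called at log2 -0.32 (95% interval -0.78 to 0.14, adjusted p = 0.192), and it was called higher in SMF after median-of-ratios scaling at log2 0.97. Fragments moved between its 3 listed transcripts from library to library, and these held as little as 10.2% of the gene value, so transcripts of Nfatc1 are not described.

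Nfatc3 (ENSMUSG00000031902, chromosome 8, 106058818 to 106130537) stood at 4.32, 4.22 and 3.94 FPKM in SMF, 6.63 and 7.71 in SC and 9.79, 8.39 and 11.6 in EC. The 3 populations did not overlap. Nfatc3 was lower in SMF than in SC (log2 -0.66, SE 0.16, adjusted p = 0.00854), less so than the median gene at -0.93, and this call held under none of the 3 other scalings. It was lost under upper-quartile scaling (log2 -0.27) and without the 50 most abundant genes (log2 0.23), became a call of higher in SMF after median-of-ratios scaling (log2 0.69), and was also lost without SC replicate 3 (adjusted p = 0.0569). It was lower in SMF than in EC (log2 -1.07, SE 0.15, adjusted p = 0.000363), and at log2 -0.43, -0.48 and 0.15 under upper-quartile scaling, scaling without the 50 most abundant genes and median-of-ratios scaling, of which the second was called. SC minus EC was not called at log2 -0.41 (95% interval -0.79 to -0.03, adjusted p = 0.0888), and it was called lower in SC under 2 of the 3 other scalings and without EC replicate 2. The end of Nfatc3 overlaps the gene Esrp2, which was listed at 0 in SMF and SC and did not exceed 0.768 FPKM in EC.

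Nfatc4 (ENSMUSG00000023411, chromosome 14, 55824795 to 55833943), a member first known from heart and brain, was listed at 0, 0 and 0.0710 FPKM in SMF, 0.784 and 0.620 in SC and 0.676, 0.946 and 1.42 in EC. SMF lay below the others, which overlapped. It reached 1 FPKM in 1 library, so it did not pass the filter, and its values are worth a few fragments per kb or less. None of its transcripts was listed, so its fragments were not counted. With no filter on low values, limma called it lower in SMF than in SC (log2 -0.73, SE 0.21, adjusted p = 0.0293) and than in EC (log2 -0.96, SE 0.19, adjusted p = 0.00495), and SC minus EC was not called (log2 -0.23, 95% interval -0.72 to 0.26, adjusted p = 0.470).

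The mix of NFAT genes was different in SC. Of the TPM of Nfatc1 to Nfatc4, Nfatc2 held 7.25%, 14.1% and 13.5% in SMF, 47.6% and 48.1% in SC and 5.08%, 8.74% and 2.96% in EC. Nfatc1 held 56.1%, 48.4% and 48.1% in SMF, 28.7% and 21.8% in SC and 52.6%, 56.3% and 46.1% in EC. Both SC libraries lay outside the range of all others in each share. Shares of the same total are tied, so a larger share of Nfatc2 goes with smaller shares of the other genes. As deposited, the TPM of Nfatc1 itself was not lower in SC than in SMF, at 4.775, 3.768 and 2.967 in SMF, 5.948 and 4.949 in SC and 8.348, 11.54 and 8.68 in EC. This order depends on the scaling. By FPKM, Nfatc1 was called lower in SC than in SMF after median-of-ratios scaling. The summed TPM of the 4 genes was 8.51, 7.78 and 6.17 in SMF, 20.7 and 22.7 in SC and 15.9, 20.5 and 18.8 in EC. Unlike the shares, these sums depend on the scaling. By TPM the median gene was also lower in SMF, at log2 -1.02 against SC and -0.92 against EC.

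**Figure D4:**
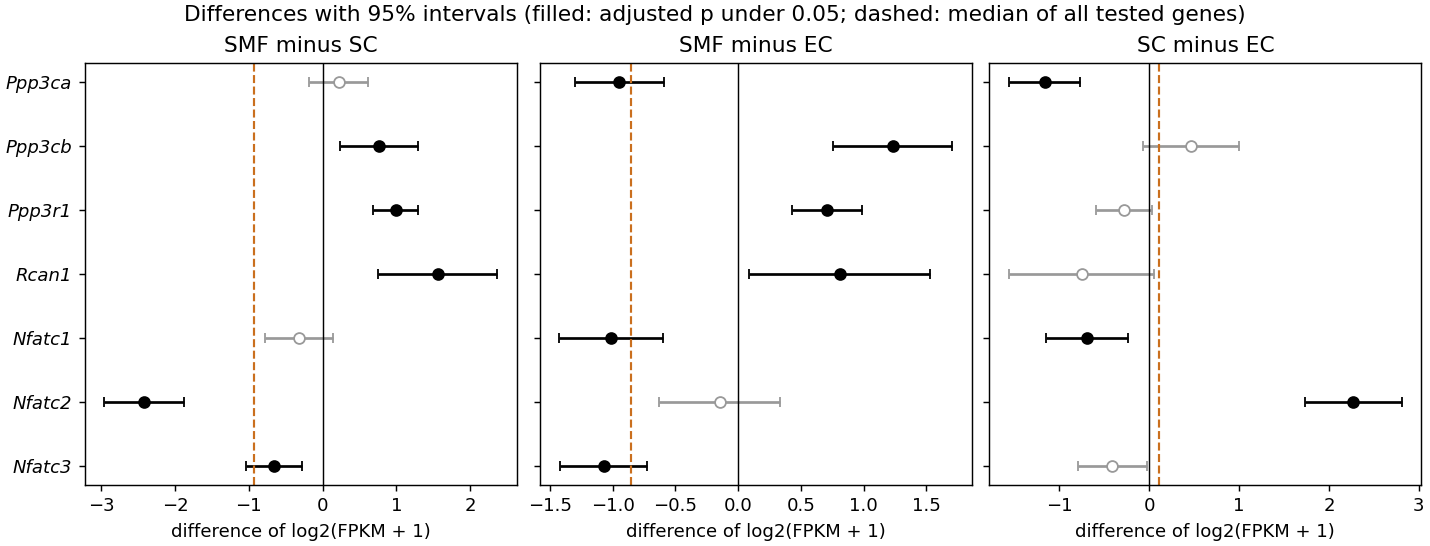
Difference of log2(FPKM + 1) (x axis) for the 7 tested members (y axis) in SMF minus SC, SMF minus EC and SC minus EC, with 95% intervals from limma; filled points have an adjusted p under 0.05 and the dashed line is the median of all 16700 tested genes (-0.93, -0.85 and 0.11). Nfatc2 lies at -2.42 in SMF minus SC and 2.27 in SC minus EC, and in SMF minus EC the points of Ppp3ca and Nfatc1 lie near the dashed line.

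**Figure D5:**
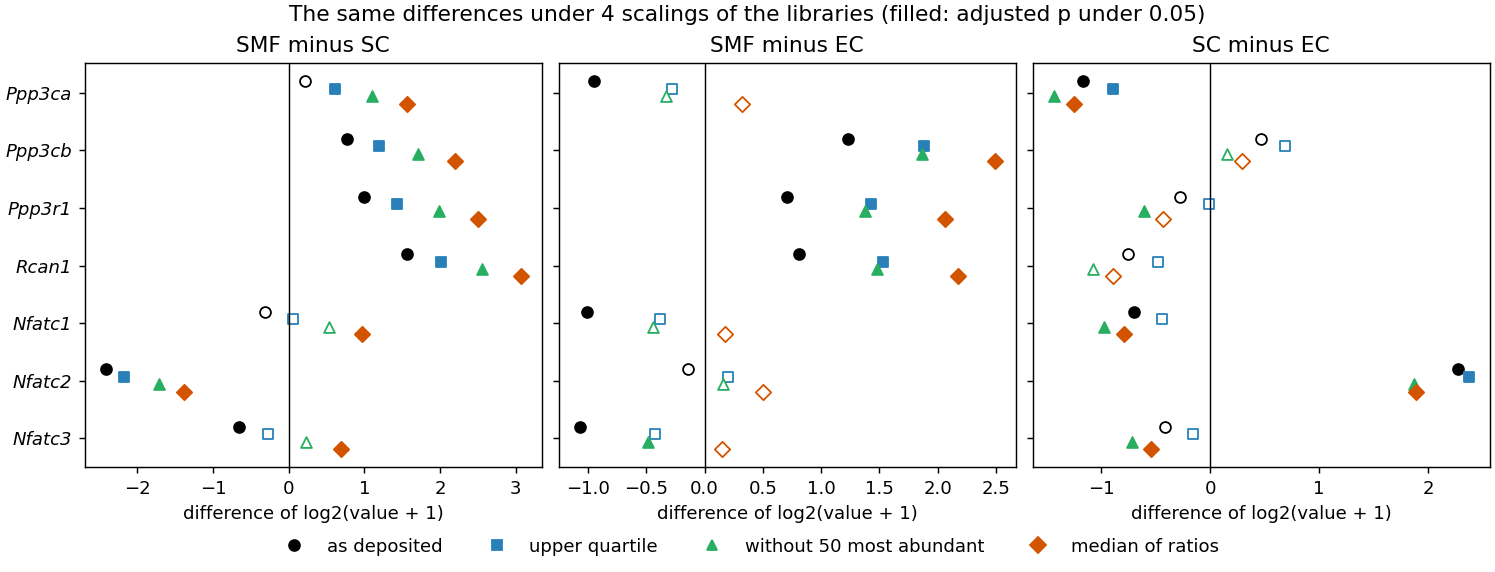
The same differences (x axis) as deposited and under 3 other scalings of the libraries; filled symbols have an adjusted p under 0.05. In SMF minus SC and SMF minus EC every member shifts to the right, Ppp3cb, Ppp3r1 and Rcan1 stay above 0, and Nfatc1 and Nfatc3 change sign under at least 1 scaling in both, as do Ppp3ca and Nfatc2 in SMF minus EC.

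Other genes of the pathway were counted in 9 lists with 43 genes. Calmodulin, the calcium sensor that activates calcineurin, is encoded by several genes, of which Calm2 and Calm3 are described. Calm3 averaged 60.1 ± 2.13 FPKM in SMF, 32.8 ± 7.10 in SC and 31.5 ± 2.43 in EC (SD), and was higher in SMF than in SC (log2 0.87, adjusted p = 0.00308) and than in EC (log2 0.91, adjusted p = 0.00126), also under the 3 other scalings. Calm2 had 47.9 ± 6.21 FPKM in SMF, 108 ± 14.4 in SC and 78.4 ± 13.5 in EC, and was lower in SMF than in SC (log2 -1.16, adjusted p = 0.00203) but not under any other scaling.

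Of the 7 tested inhibitors and anchors of calcineurin, 2 were higher and 5 lower in SMF than in SC, with a median log2 of -1.17 beside -0.93 for all tested genes, and 2 were higher and 2 lower in SMF than in EC, with medians of -0.04 for the list and -0.85 for all tested genes. As deposited, 8.57% of all tested genes were higher and 56.5% lower in SMF than in SC. Against EC, 10.8% were higher and 55.5% lower. After median-of-ratios scaling, where 6 were tested, 2 were higher and 1 lower in SMF than in SC, and 4 higher and 2 lower in SMF than in EC. Under that scaling 48.9% of all calls were higher in SMF minus SC and 47.0% in SMF minus EC. Myoz1, a Z disc protein gene of fast fibres whose product binds calcineurin, stood at 341, 360 and 389 FPKM in SMF, 0 and 2.31 in SC and 0.241, 0 and 0.511 in EC. Its relative Myoz3 stood at 13.8, 16.5 and 9.73 in SMF and was listed at 0 in the 5 other libraries. Both were called higher in SMF in both comparisons under each scaling. Chp1, a calcineurin-like inhibitor, had 4.30 ± 1.68 FPKM in SMF, 10.4 ± 1.81 in SC and 4.56 ± 0.571 in EC and was lower in SMF than in SC (log2 -1.15, adjusted p = 0.00653), a call lost under 2 of the 3 other scalings. Cabin1, a repressor that binds calcineurin, had 0.233 ± 0.161 FPKM in SMF and 4.48 ± 1.24 in EC and was lower in SMF under each scaling (log2 -2.13 as deposited, adjusted p = 9.37e-05). In SC minus EC, 3 of the 7 were higher and the rest not called, where 21.2% of all tested genes were higher and 16.4% lower. The 3 were Rcan2, Chp1 and Myoz2, which stood at 2.00 and 1.37 FPKM in SC and did not exceed 0.0971 in EC. Of these, Rcan2 was called under all 3 other scalings, Chp1 under 1, and Myoz2 under the 1 in which it passed the filter.

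Of the 8 NFAT kinase genes, 6 were lower in SMF than in SC and the other 2 were not called, where 56.5% of all tested genes were lower. Their median log2 was -0.90, close to the -0.93 of all tested genes. After median-of-ratios scaling 1 was lower and 4 were higher, where 48.9% of all calls were higher, against 13.2% as deposited. Csnk1d, a casein kinase, stood at 3.38 ± 0.644 FPKM in SMF, 27.5 ± 3.19 in SC and 10.0 ± 1.76 in EC. It was lower in SMF than in SC (log2 -2.71, adjusted p = 1.83e-05) and higher in SC than in EC (log2 1.38, adjusted p = 0.00123) under each scaling. Csnk1a1 had 8.81 ± 0.875 FPKM in SMF and 20.0 ± 1.59 in SC, and Dyrk1a had 8.31 ± 0.546 FPKM in SMF and 13.7 ± 0.0189 in SC, and both were called lower in SMF as deposited, with the sign turned after median-of-ratios scaling. In SMF minus EC, 4 were lower and 1 higher, where 55.5% of all tested genes were lower and 10.8% higher. The median log2 was -0.46 beside -0.85 for all tested genes. After median-of-ratios scaling 6 were higher and the other 2 not called, where 47.0% of all calls were higher, against 16.3% as deposited. Among the 4 was Gsk3b, with 4.43 ± 0.305 FPKM in SMF and 8.15 ± 0.816 in EC, whose sign also turned after median-of-ratios scaling. The 1 gene called higher there, Dyrk1b, had 5.53 ± 0.333 FPKM in SMF and 2.65 ± 1.49 in EC (log2 0.93, adjusted p = 0.0230), also under the 3 other scalings. In SC minus EC, 3 were higher and 5 not called, where 21.2% of all tested genes were higher and 16.4% lower. The 3 were Csnk1d, Dyrk1a and Gsk3a, of which 1 was called after median-of-ratios scaling.

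Nfat5, the member of the family that calcineurin does not control, stood at 2.31, 2.52 and 2.29 FPKM in SMF, 18.3 and 19.0 in SC and 20.5, 18.1 and 22.4 in EC. It was lower in SMF than in SC (log2 -2.54, SE 0.14, adjusted p = 6.2e-06) and than in EC (log2 -2.66, SE 0.13, adjusted p = 1.19e-06) under each scaling. Homer3, whose protein competes with calcineurin for NFAT, had 0.471 ± 0.0259 FPKM in SMF, 2.93 ± 0.148 in SC and 4.72 ± 0.768 in EC and was lower in SMF in both comparisons under each scaling. Nfatc2ip was also lower in SMF than in SC (log2 -1.08, adjusted p = 0.0119), though under 1 of the 3 other scalings only. Homer2 was not tested. The genes of the immunophilins that carry calcineurin-inhibiting drugs, Ppia and Fkbp1a, stood at 1.37 ± 0.272 and 2.36 ± 0.165 FPKM in SMF, 17.5 ± 5.10 and 5.63 ± 1.46 in SC, and 11.9 ± 3.12 and 9.39 ± 0.471 in EC. Both were lower in SMF than in SC and EC, and for Fkbp1a the call against SC was lost under the 3 other scalings and its sign turned in 1 of them.

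Among 6 other calcineurin substrates, 2 were higher and 1 lower in SMF than in SC, where 8.57% of all tested genes were higher and 56.5% lower. In SMF minus EC 1 was higher and 2 lower, where 10.8% of all tested genes were higher and 55.5% lower. Their median log2 was 0.19 and -0.15, beside -0.93 and -0.85 for all tested genes. After median-of-ratios scaling 5 were higher and the other 1 not called in SMF minus SC, and 4 were higher and 1 lower in SMF minus EC. Under that scaling 48.9% and 47.0% of all calls were higher, against 13.2% and 16.3% as deposited. Mef2c, a muscle transcription factor gene, stood at 17.4, 23.1 and 14.7 FPKM in SMF, 0.335 and 0.683 in SC and 5.27, 8.57 and 9.28 in EC. It was higher in SMF than in SC (log2 3.67, SE 0.27, adjusted p = 2e-05) and than in EC (log2 1.17, SE 0.25, adjusted p = 0.0035) under each scaling. Tfeb, a regulator of lysosome genes, had 2.92 ± 0.190 FPKM in SMF and 1.44 ± 0.190 in SC and was higher in SMF under each scaling (log2 0.68 as deposited, adjusted p = 0.00269). Crtc2, a CREB coactivator gene, had 1.53 ± 0.149 FPKM in SMF, 5.36 ± 0.191 in SC and 8.36 ± 0.495 in EC, and was lower in SMF than in EC under each scaling (log2 -1.89 as deposited, adjusted p = 4.87e-06). In SC minus EC, 4 were lower and 2 not called, where 21.2% of all tested genes were higher and 16.4% lower. Among the 4 were Mef2c (log2 -2.51, adjusted p = 0.000293) and Crtc2 (log2 -0.56, adjusted p = 0.0132, not called under upper-quartile scaling). Mef2a was another, with 5.50 ± 0.222 FPKM in SC, against 14.1 ± 2.69 in EC (log2 -1.20, adjusted p = 0.00171, also under the 3 other scalings).

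Of 5 slow fibre genes known to be under calcineurin control, 2 passed the filter. Mb, the myoglobin gene, stood at 275, 191 and 321 FPKM in SMF, 9.33 and 18.7 in SC and 0, 0 and 2.71 in EC, and was higher in SMF in both comparisons under each scaling. Myl2, a slow and cardiac light chain gene, was listed at 0 in all SMF and EC libraries and stood at 2.70 and 7.11 in SC. Myh7, the slow myosin heavy chain gene, stood at 0.578, 0.0704 and 0.0799 FPKM in SMF and Tnni1 at 0.0777, 0 and 0, and Myl3 was listed at 0, so 4 of the 5 slow genes stayed under 1 FPKM in these fibres. In SC, Myh7 stood at 0.294 and 1.06 FPKM, Tnni1 at 0.157 and 1.97 and Myl3 at 0.257 and 1.43. In EC none of these exceeded 0.114. EDL is a fast muscle, while SC came from muscles of the hindlimb. The part of the muscle of origin or of fibre RNA in the SC values was not tested. Among 5 vascular genes known as targets of calcineurin and NFAT, 1 was higher and 3 were lower in SMF than in EC. Of all tested genes 10.8% were higher and 55.5% lower in this comparison. The median log2 was -3.28 for the list and -0.85 for all tested genes. Sele was read at 0, 0.270 and 0.384 FPKM in SMF, at 0.475 and 0.608 in SC and at 32.7, 81.6 and 34.0 in EC, and Angpt2, an angiopoietin gene, at 0.185 ± 0.0760 FPKM in SMF, 1.26 ± 0.378 in SC and 16.7 ± 2.15 in EC. The gene called higher was Ptgs2, the inducible cyclooxygenase, at 1.18, 5.74 and 3.42 FPKM in SMF and 0.450, 0.415 and 1.17 in EC (log2 1.29, SE 0.39, adjusted p = 0.0203). Vcam1, which is also a surface marker of satellite cells, had 0.253 ± 0.0423 FPKM in SMF, 32.1 ± 1.80 in SC and 12.5 ± 7.91 in EC, and was lower in SMF in both comparisons under each scaling.

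By the distance between centred log2(FPKM + 1) values over the 8 libraries, the genes most like each tested member were named. They were Gp9 and Ntng2 for Ppp3ca (distances 0.282 and 0.383), Ppp1r12b and Hif1an for Ppp3cb (0.329 and 0.347), and Ldhd and Ccnk for Ppp3r1 (0.268 and 0.300). Rcan1 had no gene closer than Nampt at 0.677 and Dusp23 at 0.736. Nfatc1 was closest to Lrif1 and Adamts6 (0.233 and 0.354), Nfatc2 to Rpl10a and Rrp15 (0.423 and 0.528), and Nfatc3 to Glod4 and Dnmbp (0.138 and 0.182). With 8 libraries in 3 populations, such a distance reflects mainly the population means. Several of these genes were low. Gp9 was listed at 0 in SMF and SC and stood at 0.675 to 1.35 FPKM in EC. Ldhd ran from 0.0888 to 1.68 FPKM over the 8 libraries and Adamts6 from 0.0703 to 1.36. At such levels the 1 added before the log shrinks differences, so a short distance does not mean a like fold difference.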

How the data were processed

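RNA of 8 libraries was sequenced from 10 ng each as pairs of 50 bp after random priming with a strand-keeping kit and removal of ribosomal cDNA, per the labels' protocols. Per the submitters' processing notes, FastQC, Trimmomatic, HISAT2, StringTie and bedtools were used with build mm10. Per the labels' protocols, 1 sample of the study fell short of the RNA integrity asked for; which one is not said, and its part in the values was not tested. Versions, settings and the use of strand in counting were not given in the sources used here. The deposited gene table holds FPKM, and the deposited second table holds TPM for loci together with the authors' mean TPM and a specificity score of the authors, which was not used. The deposited transcript table holds FPKM and coverage for each transcript. Dividing the FPKM of the listed transcripts, weighted by length, by the joint length of their exons in GENCODE gave 94.0% to 100% of the deposited gene FPKM for Ppp3ca, Ppp3r1, Rcan1, Nfatc2 and Nfatc3, and 2.5% to 31.1% for Ppp3cb, whose other transcripts were not analysed here.

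limma 3.58.1 (R 4.3.3) with a mean-variance trend was fitted to log2(FPKM + 1) of all 8 libraries with 1 mean per population, for the 16700 genes that reached 1 FPKM in 2 or more libraries, two-sided, with Benjamini-Hochberg adjustment over these genes and calls at an adjusted p under 0.05. The pseudocount understates differences of low genes. The calculation was tested on simulated data. Fragments were coverage times length over the 100 bases of a read pair. Alternatives were another pseudocount, no filter, 3 scalings, the TPM table, no trend, fits of 2 groups, a replicate block and each library left out, and the sum of listed transcripts was added after the data were seen. The members and lists were chosen with earlier results of these data known. From lists of up to 3 genes all were named, apart from a gene that is not reported here, and from longer ones the 3 called genes with the highest mean and any called against the direction of most. Genes that a sentence names outside this rule, such as Homer2, Rcan3, Dpt, Col3a1, Myh7, Tnni1, Myl3 and Esrp2, were chosen after their values were seen.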

Additional observations from a re-analysis of the deposited data

How the results depend on the processing

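For SMF minus SC, 6 members were higher after median-of-ratios scaling and 1 in the TPM table (3 as deposited), and 1 was lower under each of the 3 other scalings (2 as deposited). For SMF minus EC, 1 was higher in the TPM table and 1 with the sum of listed transcripts (3 as deposited), and 1 was lower without the 50 most abundant genes (3 as deposited). Under median-of-ratios and under upper-quartile scaling limma called 0 of 7 lower, and 0 also at an unadjusted p under 0.05. For SC minus EC, the lower members were 1 under upper-quartile scaling, in the TPM table, with the sum of listed transcripts and in fits of 2 groups, and 4 without the 50 most abundant genes (2 as deposited). All-gene counts higher in SMF than in SC were 3937 by median-of-ratios and 2692 when the 50 most abundant genes were left out of the scaling (1431 as deposited), and lower counts 4121 and 5490 (9436). Higher in SMF than in EC were 4377 and 2809 (1811), and lower 4929 after median-of-ratios scaling (9268). Higher in SC than in EC were 2348 and 1929 (3543), and lower 1824 under upper-quartile scaling (2745). Calls higher in the first group were 13.2%, 16.3% and 56.3% of all calls as deposited in SMF minus SC, SMF minus EC and SC minus EC, and 48.9%, 47.0% and 46.0% after median-of-ratios scaling.

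Signs turned under median-of-ratios scaling for SMF minus SC of Nfatc1 (0.97) and Nfatc3 (0.69), and for SMF minus EC of Ppp3ca (0.32), Nfatc1 (0.18), Nfatc2 (0.50) and Nfatc3 (0.15). They turned under upper-quartile scaling for Nfatc1 in SMF minus SC (0.059) and Nfatc2 in SMF minus EC (0.20), and without the 50 most abundant genes for Nfatc1 (0.53) and Nfatc3 (0.23) in SMF minus SC and Nfatc2 in SMF minus EC (0.16). Ppp3r1 in SC minus EC was 0.0049 in the TPM table. Nfatc2 in SMF minus EC ran from -0.32 to 0.058 with 1 library left out, and was above 0 without EC replicate 2. The sum of listed transcripts turned Ppp3cb to -0.23, -0.25 and -0.018 in SMF minus SC, SMF minus EC and SC minus EC, where the table lists few of its fragments. Other causes were not tested.

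Without 1 library at a time, members higher numbered 2 to 3 in SMF minus SC, 2 to 3 in SMF minus EC and 1 in SC minus EC, and members lower 1 to 2, 3, and 1 to 2. All-gene counts ran from 1212 to 1483 higher and 7115 to 9788 lower (SMF minus SC), 1614 to 1820 and 8350 to 9510 (SMF minus EC), and 1733 to 3466 and 1962 to 2991 (SC minus EC). The lowest higher counts in SC minus EC were 1733 without SC replicate 3 and 2080 without SC replicate 1.

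From gene FPKM the mean share of Ppp3ca was 29.3% in SMF and 37.8% in SC, and that of Nfatc2 in SC 39.3%. By FPKM the 14-exon Ppp3ca form averaged 44.7% of listed transcripts in SMF, against 29.6% by fragments.

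The replicate block, with residual correlations of -0.058 to 0.091 between libraries of equal number, left 20 of 21 member results as they were and ended the call of Rcan1 in SMF minus EC (adjusted p = 0.0648). The numbers are not known to pair the libraries. The same call was lost with a pseudocount of 0.1, with no filter, without the trend, in fits of 2 groups, in the TPM table and with the sum of listed transcripts (adjusted p = 0.0505 to 0.0920). At this depth, 1 fragment on a 1 kb transcript is worth 0.172 to 0.190 FPKM in SMF. It is worth 0.320 and 0.360 in SC and 0.272 to 0.336 in EC. Values near these rest on single fragments of such a transcript.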
